A study of Mus musculus with 72 samples.

Results

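The histone deacetylases described here were the 10 genes Hdac1, Hdac2, Hdac3, Hdac4, Hdac5, Hdac6, Hdac7, Hdac8, Hdac9 and Hdac11, out of 18820 genes that had a probe set annotated to a single gene symbol. Other deacetylase genes were not analysed here. Members were found by symbol, and where a gene had several such probe sets the one with the highest mean over the 72 arrays stood for it. This applied to Hdac1, whose 2 probe sets correlated within groups with r = 0.86. All 10 lay above the 72nd percentile of all probe sets by mean value, from Hdac8 at 72.1 to Hdac3 at 96.7. Because different probe sets differ in affinity, levels were compared between groups for a given gene and never between genes.

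RNA came from whole hippocampi of adult male C57BL/6J mice, 2 months of age, which were housed singly under a 12 h light and 12 h dark cycle with lights on at 7 am and handled for 3 days. Fear-conditioned mice were placed in a chamber from 10 am and received 1 foot shock of 2 s and 1.5 mA that ended 2.5 min later, and their hippocampi were taken after 30 min in group FC30, after 4 h in FC4, after 12 h in FC12 and after 24 h in FC24. Mice of group RT30 had a memory test of 5 min in the same chamber 24 h after training and were killed 30 min after it, whereas CC30, CC4 and CC12 mice were handled and untrained and were killed at the matching time of day. Each of the 8 groups held 9 mice with 1 array per mouse, CC30 served as control for FC30, FC24 and RT30, and no group received the chamber or the shock alone. The 12 h groups were the only ones taken in the dark phase. As the tissue was whole hippocampus, fewer cells of a type and less RNA per cell could not be told apart.

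Histone deacetylases remove acetyl groups from lysines of histones and other proteins, and inhibitors of these enzymes are known to strengthen memory in rodents. Hdac1, Hdac2, Hdac3 and Hdac8 form class I, of which Hdac1 and Hdac2 are the catalytic subunits of the Sin3, NuRD and CoREST complexes and Hdac3 that of the NCoR complex. Hdac4, Hdac5, Hdac7 and Hdac9 form class IIa, bind the transcription factor MEF2 and leave the nucleus when kinases phosphorylate them. Hdac6, a cytoplasmic tubulin deacetylase, belongs to class IIb, and Hdac11 is the only member of class IV.

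After RMA, which brings arrays to a common distribution, array medians ran from 5.82 to 5.88 on the log2 scale and no value was missing. Such medians do not measure the depth of signal before RMA. Of the 72 arrays, 6 stood apart from their groups on the first 2 principal components. The first component (PC1), which held 17.4% of the variance, was subtracted before testing, and all values given are log2 values after that step. The groups matched their labels for activity genes, since Arc was higher in FC30 than in CC30 by 0.86 (adjusted p = 8.97e-05) and Fos by 0.82 (adjusted p = 1.11e-04), and the clock gene Per2 was higher in CC12 than in CC30 by 0.38 (adjusted p = 6.26e-04). All 8 markers of neurons lay above the 90th percentile of probe sets, their mean level ran from 11.44 to 11.54 over all mice, and none of them was called in any comparison. Of 8 markers of hippocampal neuron types, 4 were called in the F test over the 8 groups (Prox1, C1ql2, Dsp and Fibcd1).

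Group means differed among the 8 groups for 2 of the 10 histone deacetylases at an adjusted p under 0.1 (F test). These were the class IIa members Hdac9 and Hdac4, which moved in opposite directions between the groups taken at 4 h and at 12 h. In a limma F test over the 8 groups, 10.1% of all probe sets were called at an adjusted p under 0.1. Hdac9 had F = 14.5 (adjusted p = 8.88e-09), and 62.3% of its variance lay between groups. Hdac4 had F = 4.53 (adjusted p = 0.00816), with 34.1% of its variance between groups. The tubulin deacetylase Hdac6 (adjusted p = 0.139, 23.5%) and the class IIa member Hdac5 (adjusted p = 0.181, 22.1%) followed without passing, and Hdac6 passed under 3 of the alternative settings. The other 6 members had adjusted p-values from 0.345 for Hdac1 to 0.957 for Hdac2, and the group means of Hdac2 lay within 0.053 of each other.

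**Figure D1:**
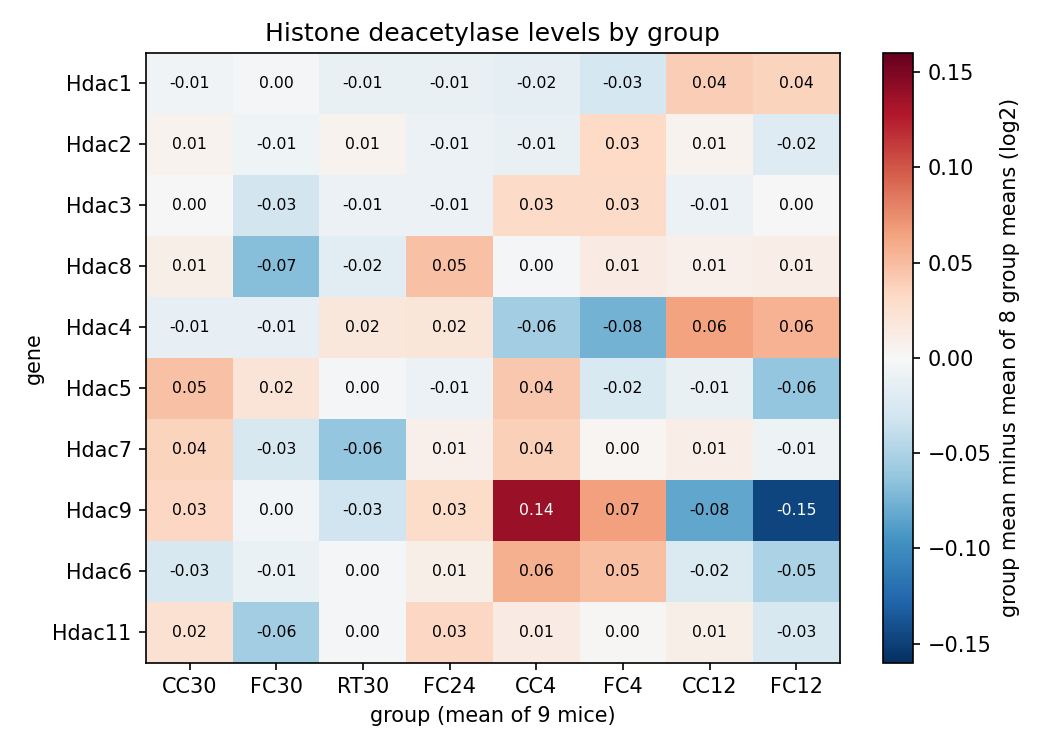
Mean log2 value of each histone deacetylase in each group of 9 mice, minus the mean of the gene's 8 group means; rows are genes and columns are groups. Hdac9 ran from -0.15 in FC12 to 0.14 in CC4, Hdac4 from -0.08 in FC4 to 0.06 in the 12 h groups, and no other gene left the range from -0.07 to 0.06.

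Because both genes differed in RNA level between groups, the windows around their annotated transcription starts are shown, with 250 bases before the start and 50 after it. RefSeq promoter entries (GRCm38.p6) were found for 8 of the 10 members, in 12 windows. Capitals mark matches, on either strand, to 6 motifs: the E-box CACGTG, the cAMP response element half-site TGACG, the half-site AGGTCA that REV-ERB and ROR receptors bind, a loose MEF2-like pattern (CTA and TAG with any 4 bases between them, not only A or T), the GC box GGGCGG and the CCAAT box CCAAT. The Hdac4 window is at chr1:92180292-92180591 on the minus strand, and the 2 Hdac9 windows, of different transcripts, are at chr12:34917046-34917345 and chr12:34528840-34529139, also on the minus strand.
Hdac4: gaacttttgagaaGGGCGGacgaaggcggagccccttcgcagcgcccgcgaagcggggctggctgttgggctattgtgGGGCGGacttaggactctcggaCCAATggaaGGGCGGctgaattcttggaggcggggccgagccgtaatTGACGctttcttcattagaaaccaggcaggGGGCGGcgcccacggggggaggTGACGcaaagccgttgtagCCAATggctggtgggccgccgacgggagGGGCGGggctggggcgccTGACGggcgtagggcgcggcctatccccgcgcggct
Hdac9, first window: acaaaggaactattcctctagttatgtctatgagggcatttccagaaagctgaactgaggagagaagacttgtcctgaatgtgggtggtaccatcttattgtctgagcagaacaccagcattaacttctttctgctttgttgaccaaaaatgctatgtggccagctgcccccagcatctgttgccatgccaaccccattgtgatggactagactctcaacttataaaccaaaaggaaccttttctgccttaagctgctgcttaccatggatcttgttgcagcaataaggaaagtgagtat
Hdac9, second window: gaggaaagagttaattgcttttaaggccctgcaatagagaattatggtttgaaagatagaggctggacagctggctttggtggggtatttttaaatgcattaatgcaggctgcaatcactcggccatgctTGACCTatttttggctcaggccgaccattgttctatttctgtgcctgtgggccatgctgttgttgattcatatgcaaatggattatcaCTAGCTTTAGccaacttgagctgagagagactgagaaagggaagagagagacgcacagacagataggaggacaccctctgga
The Hdac4 window was 68.0% G and C and held 3 cAMP response element half-sites, 5 GC boxes and 2 CCAAT boxes. The Hdac9 windows were 44.0% and 45.3% G and C, against a median of 52.7% over all 32851 windows of this length. The second of them held 1 AGGTCA half-site and 1 match to the loose MEF2-like pattern, and the first held none of the 6. The middle bases of that match, GCTT, were not all A or T. None of these matches overlapped another. Over all windows, 7.15% held the E-box, 20.8% the cAMP response element half-site, 16.3% the AGGTCA half-site, 3.69% the loose MEF2-like pattern, 35.7% the GC box and 37.4% the CCAAT box. These matches describe the letters only, and no binding was measured.

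Hdac9 encodes a class IIa deacetylase with a weak catalytic domain that acts mainly as a corepressor of MEF2. Its transcript was highest in the groups killed at 4 h and lowest in those killed at 12 h. In CC4 mice it ran from 8.76 to 8.97 with a median of 8.80, and in FC4 mice from 8.66 to 8.85 with a median of 8.70. In CC12 mice it ran from 8.49 to 8.67 with a median of 8.57, and in FC12 mice from 8.44 to 8.61 with a median of 8.53. The 12 h mice thus lay below the 4 h mice without overlap, in trained and in untrained animals. The groups taken near the time of training lay between them: the lowest, median and highest values were 8.61, 8.69 and 8.84 in CC30, 8.57, 8.68 and 8.76 in FC30, 8.61, 8.70 and 8.81 in FC24, and 8.55, 8.62 and 8.76 in RT30. By group mean the order from low to high was FC12, CC12, RT30, FC30, FC24, CC30, FC4 and CC4. Along that order only the last neighbours, FC4 at 8.74 ± 0.071 and CC4 at 8.81 ± 0.067 (SD, n = 9), lay further apart than the larger of their SDs.

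In untrained mice Hdac9 was lower in CC12 than in CC4 by 0.22, a log2 difference of -0.22 ± 0.034 (SE) with a 95% interval of -0.29 to -0.15. This was a change of -14.2% in transcript (adjusted p = 9.74e-04), and all 9 CC12 mice were below all 9 CC4 mice. Of all probe sets, 5.01% were called in this comparison and 0.655% had groups that did not overlap. In trained mice, which share no animal with the untrained ones, FC12 was below FC4 by a log2 difference of -0.21 ± 0.032 (a change of -13.7%, adjusted p = 0.00143), again without overlap between the 9 and 9 mice. Here 4.22% of all probe sets were called and 0.416% had no overlap. FC12 was also below FC24, which had been trained at the same hour a day before, by -0.18 ± 0.032 (a change of -11.6%, adjusted p = 0.00624), and all 9 FC12 mice were below all 9 FC24 mice. Of all probe sets, 3.19% were called and 0.43% had no overlap. In the trained groups the time since training differed along with the time of day, and both cannot be told apart there.

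The remaining differences of Hdac9 between times of day were smaller. CC12 was below CC30 by -0.12 ± 0.036, with 9 of 9 CC12 mice under the CC30 mean, and missed the threshold (adjusted p = 0.110, 3.5% of all probe sets called). It was called under 6 of 9 alternative settings, over which the adjusted p ran from 0.0308 to 0.231. CC4 was above CC30 by 0.10 ± 0.037 (adjusted p = 0.632, 0.0731% of all probe sets called), with 9 of 9 CC4 mice above the CC30 mean. Set against the other 54 mice, 18 of 18 mice taken at 12 h had less Hdac9 than the median of 8.70, and 8 of them had less than any other mouse. The share of all probe sets with such a split was not counted, so these counts are a description only. The 3 called differences of Hdac9 were called under all 9 alternatives. The CC4 mouse with the highest Hdac9 value (8.97) was on one of the 6 arrays that stood apart, and without those arrays the CC12 to CC4 difference was -0.21 (adjusted p = 7.77e-04).

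**Figure D2:**
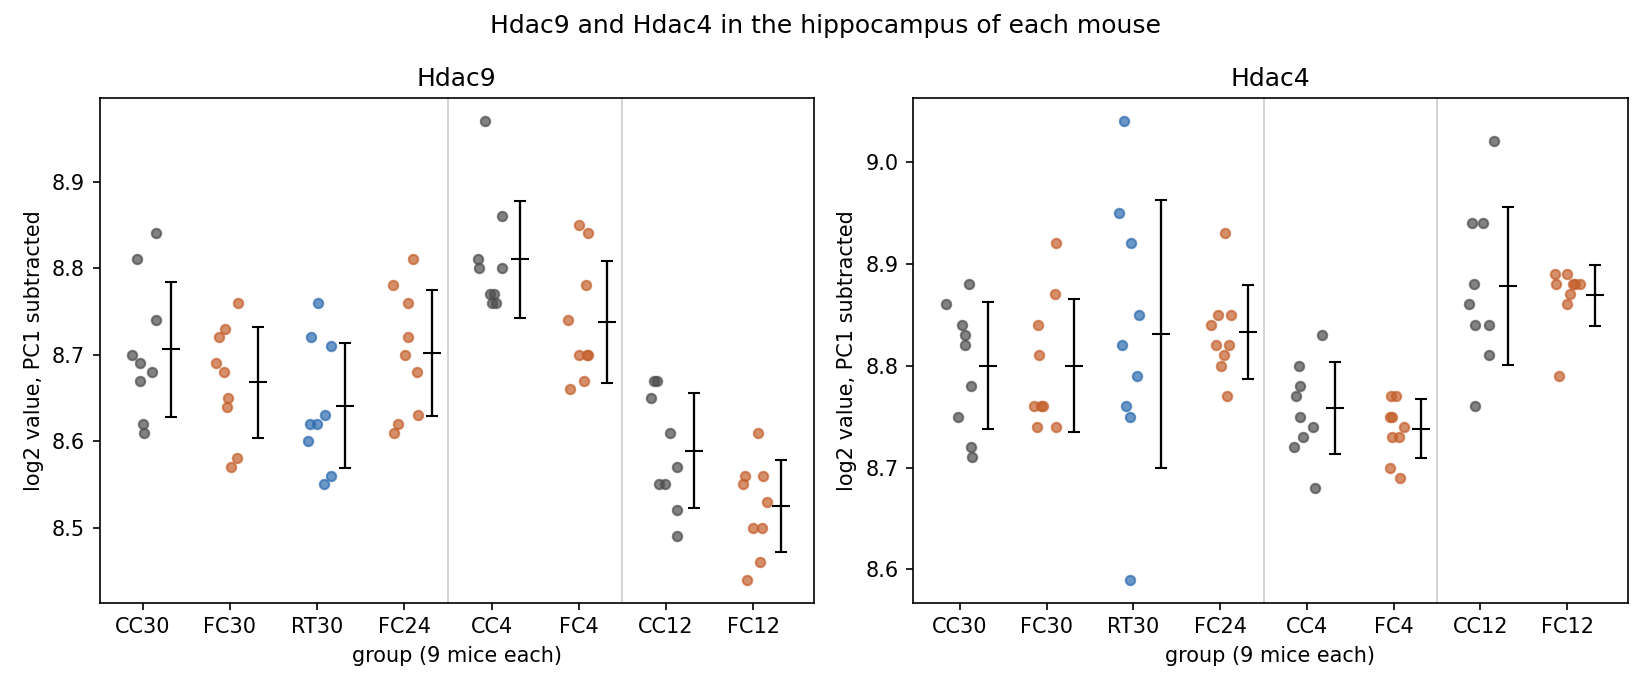
Log2 value of Hdac9 (left) and Hdac4 (right) in each mouse, by group, with each group's mean and SD (n = 9) beside its points; grey is handled, orange trained and blue tested mice. For Hdac9 the 12 h groups lay lowest, at 8.44 to 8.67, and CC4 highest; for Hdac4 both 4 h groups had the lowest means and both 12 h groups the highest.

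Hdac4, a class IIa member that is abundant in neurons and whose loss from forebrain neurons is known to impair learning, had the opposite pattern at a smaller size. The lowest, median and highest values were 8.68, 8.75 and 8.83 in CC4 mice and 8.69, 8.74 and 8.77 in FC4 mice. They were 8.76, 8.86 and 9.02 in CC12 mice and 8.79, 8.88 and 8.89 in FC12 mice. Trained mice at 4 h and 12 h did not overlap, whereas 2 of the 9 CC12 mice lay within the range of CC4. In the groups taken near the hour of training the 3 values were 8.71, 8.82 and 8.88 in CC30, 8.74, 8.76 and 8.92 in FC30, 8.77, 8.82 and 8.93 in FC24, and 8.59, 8.82 and 9.04 in RT30. The RT30 mice had the widest spread of any group for this gene, with an SD of 0.131 against 0.029 to 0.078 elsewhere. No 2 neighbours in the order of group means were further apart than the larger of their SDs.

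Hdac4 was higher in FC12 than in FC4 by 0.13 ± 0.021 (95% interval 0.09 to 0.17, 9.5% more, adjusted p = 0.00217), and was called under all 9 alternatives. It was higher in CC12 than in CC4 by 0.12 ± 0.033 (95% interval 0.05 to 0.19, 8.67% more, adjusted p = 0.0550), with 9 of 9 CC12 mice above the CC4 mean. This difference was called under 8 of 9 alternatives, and not with a term for the replicate number (adjusted p = 0.156). Against groups taken near the hour of training, the 12 h groups were not called: the differences were 0.08 ± 0.035 from CC30 (adjusted p = 0.331) in untrained mice and 0.04 from FC24 (adjusted p = 0.580) in trained mice. FC4 was below FC24 by -0.10 ± 0.023 (adjusted p = 0.221, 0.112% of all probe sets called), with 9 of 9 FC4 mice under the FC24 mean. Only 1 of 9 alternatives called that difference, the methods' t-test with Benjamini-Hochberg adjustment (adjusted p = 0.0631), and over the settings the adjusted p reached 0.50. Of the 18 mice taken at 12 h, 17 were above the median of the other 54 mice, 8.78, but none was above all of them. Here too the share of all probe sets with such a split was not counted.

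The change from 4 h to 12 h in trained mice, minus that in untrained mice, was 0.01 for both genes, with a 95% interval of -0.08 to 0.10 for Hdac9 and -0.06 to 0.09 for Hdac4 (adjusted p = 0.999 for both, and 0 of 35556 probe sets called). None of the 10 members was called in the other 3 interaction contrasts either. These compared the training effect at 4 h with that at 30 min (0.045% of all probe sets called), the training effect at 12 h with that at 30 min (0.0872%), and FC12 minus FC24 with CC12 minus CC30 (0%).

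Hdac6 came next to these in size. Its FC12 mice (8.14 to 8.31, median 8.22) were lower than its FC4 mice (8.25 to 8.49, median 8.31) by a log2 difference of -0.10 ± 0.032 (adjusted p = 0.120), with some overlap, and 7 of 9 alternatives called it. In untrained mice the difference from CC4 to CC12 was -0.08 (adjusted p = 0.395), which no alternative called. The class I members had small differences over these hours. Hdac1 was at 9.04 in CC12 and 9.03 in FC12, its highest means, against 8.98 in CC4 and 8.97 in FC4, and FC12 was above FC4 by 0.06 ± 0.026 (adjusted p = 0.237). Over the 6 comparisons between times, 5 member values passed in all, from 2 members. Among the 10 members, 2 passed in CC12 against CC4 and 2 in FC12 against FC4, beside 5.01% and 4.22% of all probe sets. FC12 against FC24 had 1 of 10, beside 3.19%. CC12 against CC30, CC4 against CC30 and FC4 against FC24 had 0 of 10, beside 3.5%, 0.0731% and 0.112%.

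**Figure D3:**
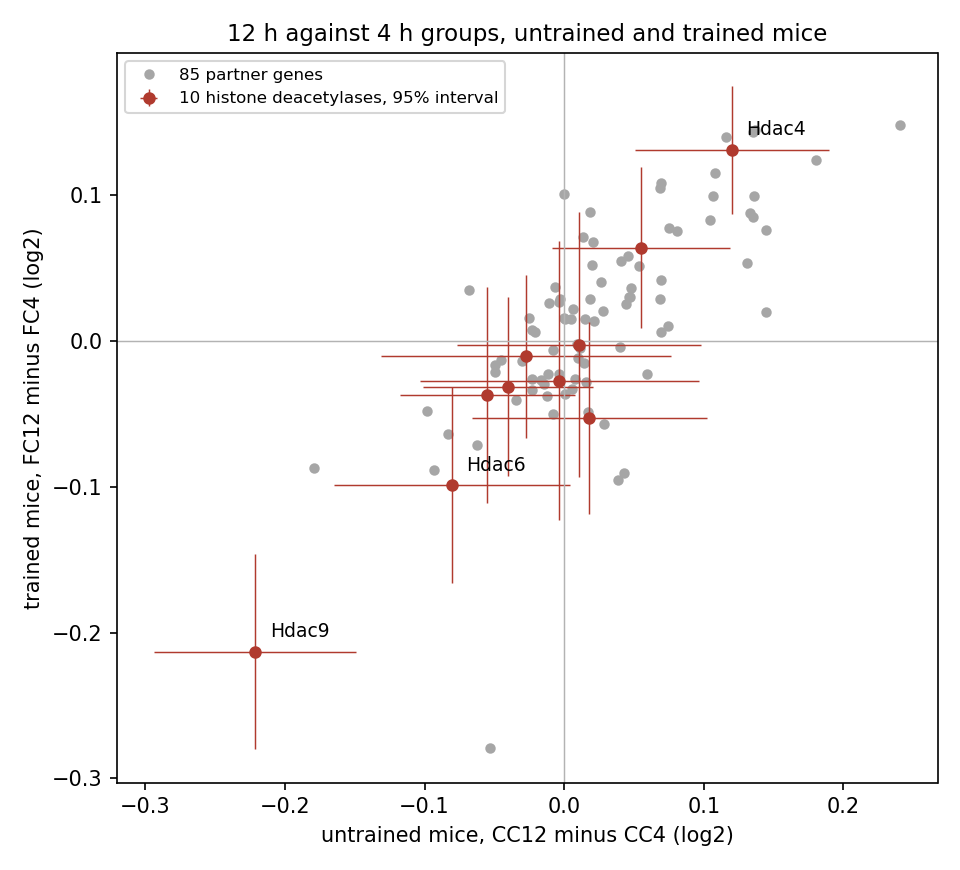
Difference between the 12 h and 4 h groups in untrained mice (x axis, CC12 minus CC4, log2) and in trained mice (y axis, FC12 minus FC4, log2) for the 10 histone deacetylases with 95% intervals (red) and 85 genes of partner lists (grey). Hdac9 lay at -0.22 and -0.21 and Hdac4 at 0.12 and 0.13; the grey point lowest on the y axis is Camk2d, at -0.28 there with an adjusted p of 0.184.

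Markers of the main cell types were set beside these differences. The mean level of the 8 neuron markers ran from 11.45 to 11.49 in CC4, 11.44 to 11.50 in CC12, 11.48 to 11.51 in FC4 and 11.45 to 11.48 in FC12 mice, and 0 of 8 were called. Of 8 markers of hippocampal neuron types 0 were called between CC12 and CC4, and Prox1 (0.18) between FC12 and FC4, with list levels of 8.89 to 9.12 over these 4 groups. Of 8 measured oligodendrocyte markers only Opalin was called between CC12 and CC4 (-0.70), and between FC12 and FC4 Opalin (-0.52) and Cldn11 (0.16). The list's mean level ran from 9.20 to 9.44 in CC4, 8.92 to 9.37 in CC12, 9.16 to 9.56 in FC4 and 9.16 to 9.42 in FC12. Of 8 astrocyte markers Gjb6 was called in the untrained comparison (0.29) and Aqp4 in the trained one (-0.13), with list levels of 9.80 to 9.96 over these 4 groups. Of 9 microglial markers Cx3cr1 was called in untrained mice (-0.20) and none in trained mice, with list levels of 7.26 to 7.52. Of 8 endothelial markers Tie1 was called in untrained mice (-0.12), and Pecam1 (-0.23) and Slco1a4 (0.19) in trained mice, with list levels of 7.14 to 7.45. None of 7 choroid plexus or 7 meningeal markers was called. Over these 4 groups the list levels ran from 5.206 to 7.94 for choroid plexus and from 6.386 to 7.195 for meninges. With so wide a spread between mice, the lack of calls does not show that these lists were level. Between FC12 and FC24 the markers called were Prox1 (0.20) and Dsp (0.47) of hippocampal neurons, Opalin (-0.48), Gjb6 (0.20), Cldn5 (-0.18) and Slco1a4 (0.28), and 0 of the neuron, microglial, choroid plexus and meningeal markers. In FC24 mice the list levels were 11.46 to 11.49 for neurons, 8.87 to 8.99 for hippocampal neuron types, 9.11 to 9.44 for oligodendrocytes, 9.78 to 9.91 for astrocytes, 7.35 to 7.47 for microglia and 7.17 to 7.51 for endothelium. They were 5.579 to 7.607 for choroid plexus and 6.528 to 7.269 for meninges. The part of these shifts in the Hdac9 and Hdac4 differences was not tested.

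Training and retrieval gave no called member. In the 5 comparisons with handled mice (FC30, FC24 and RT30 against CC30, FC4 against CC4, FC12 against CC12) and in RT30 against FC30 and FC24, limma called 0 of 10 members each time, and so did the methods' t-test with Benjamini-Hochberg adjustment. The share of all probe sets called was 0.256% for FC30, 0.278% for RT30 and 0% for FC24, FC4 and FC12 against their controls, and 0% and 0.152% for RT30 against FC30 and against FC24. The 70 log2 differences ran from -0.10 to 0.05. Their 95% intervals reached from -0.17 to 0.13, or from -11.2% to 9.68%. Each interval was taken singly, so they do not jointly bound the changes of all members. The lowest adjusted p was 0.536, and 3 of the 70 differences (4.29%) had an unadjusted p under 0.05, beside 3.9% to 6.91% of all probe sets in the 7 comparisons.

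Those 3, no larger a share than among all probe sets, are given as values. Hdac11, which removes long fatty acyl groups as well as acetyl groups, was lower in FC30 (8.94 ± 0.081) than in CC30 (9.02 ± 0.060), by -0.08 ± 0.035 (unadjusted p = 0.0360, adjusted p = 0.695), with 7 of 9 mice under the control mean. Hdac5, a class IIa member that leaves the nucleus of neurons upon activity, was lower in FC4 (8.44 ± 0.071) than in CC4 (8.51 ± 0.029), by -0.07 ± 0.030 (unadjusted p = 0.0341, adjusted p = 0.922). Hdac7, best known from endothelial cells and thymocytes, was lower in RT30 (7.87 ± 0.067) than in CC30 (7.97 ± 0.072), by -0.10 ± 0.035 (unadjusted p = 0.0125, adjusted p = 0.536), with 8 of 9 mice under the control mean. The endothelial markers had a median difference of -0.07 in the same comparison, 1 of the 8 measured (Cldn5, -0.20, adjusted p = 0.0673) was called lower, and their mean level ran from 7.23 to 7.41 in RT30 and from 7.30 to 7.48 in CC30. The part of endothelial RNA in the Hdac7 value was not tested.

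Members much studied in memory are given with their ranges. Hdac2, whose overexpression in neurons is known to impair memory, and Hdac3, whose deletion in the hippocampus is known to enhance it, differed from handled controls by -0.03 to 0.04 and by -0.03 to 0.01 over the 5 comparisons. The widest interval of Hdac2, in RT30 against CC30, was -0.09 to 0.09. The differences of Hdac1 ran from -0.01 to 0.00. Those of Hdac5 ran from -0.07 to -0.03, those of Hdac7 from -0.10 to -0.02 and those of Hdac9 from -0.07 to -0.004, several of them smaller than their SE, and the FC30, FC24 and RT30 comparisons share the 9 CC30 mice.

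**Figure D4:**
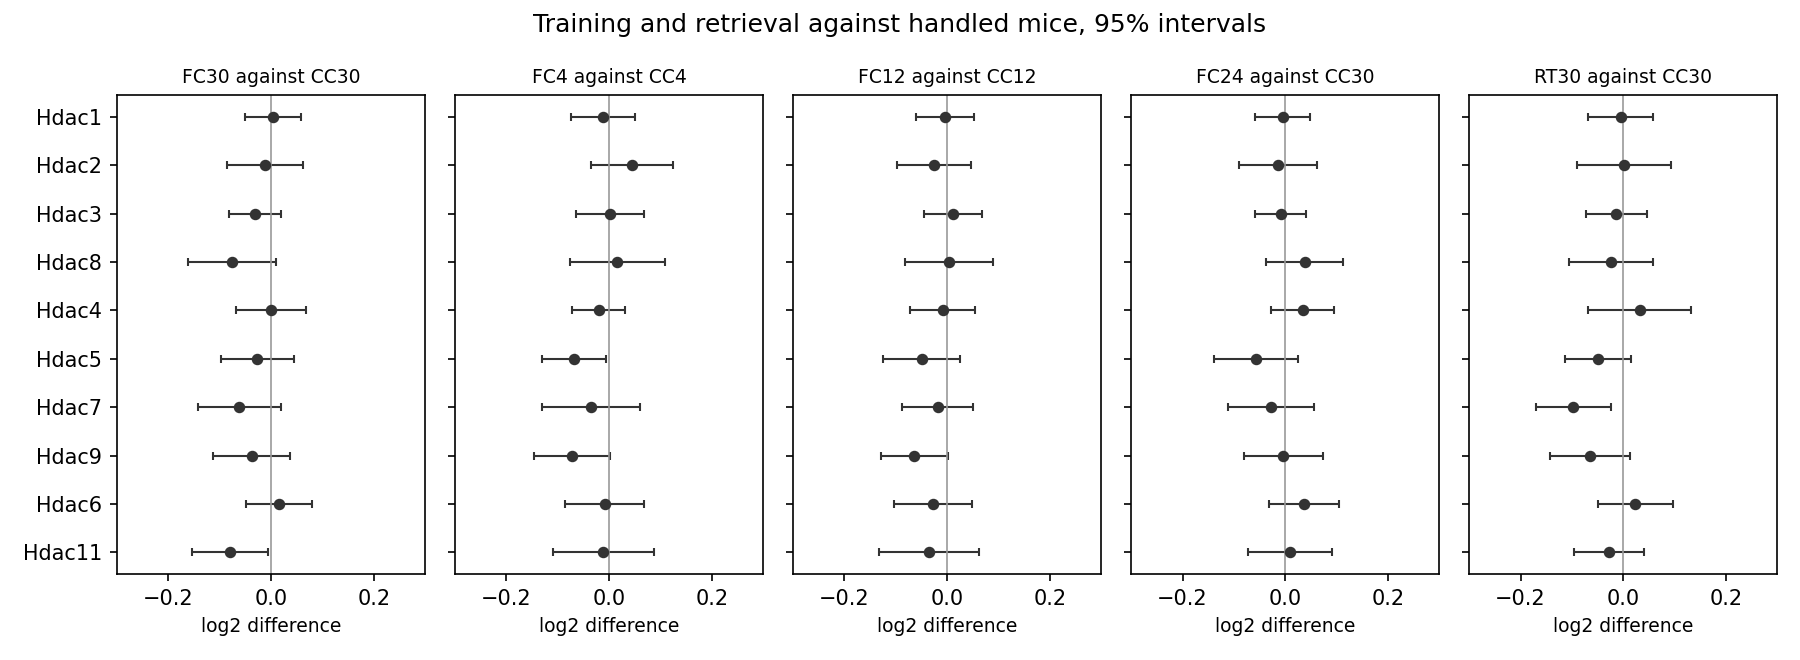
Log2 difference of each histone deacetylase between trained or tested mice and their handled controls, with 95% intervals (9 against 9 mice in each panel). Differences lay between -0.10 and 0.04 and none was called; the panels for FC30, FC24 and RT30 share the CC30 mice.

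The proteins that work with these enzymes were examined in 8 lists with 94 genes, 85 of them analysed here. These lists were chosen with earlier results of these data known. The paper had already reported Sik1 as induced after training and retrieval, and Ep300 and Crebbp as changing with time of day. Shares of all probe sets also include probe sets without a gene symbol. The shares of partners are therefore set beside them as a description, and enrichment was not tested. After training and retrieval, 2 of 85 were called in FC30 against CC30 (2.35% beside 0.256% of all probe sets). The count was 1 in RT30 against CC30 (1.18% beside 0.278%) and 1 in RT30 against FC24 (1.18% beside 0.152%). All were higher, and 0 were called in the other 4 comparisons. The gene called in all 3 was Sik1, a salt-inducible kinase that phosphorylates class IIa deacetylases. It ran from 6.63 to 6.96 in CC30, from 6.96 to 7.56 in FC30 and from 7.08 to 7.56 in RT30, so that all 9 tested mice lay above all 9 CC30 mice, as was so for 0.0816% of all probe sets in either direction. The difference was 0.52 ± 0.065 in FC30 (adjusted p = 3.94e-04) and 0.49 ± 0.058 in RT30 (adjusted p = 1.99e-04). In FC24 it was at 6.80 ± 0.090, level with CC30 at 6.80 ± 0.112. The other was Sap30, a subunit of the Sin3 complex, higher in FC30 than in CC30 by 0.21 ± 0.043 (adjusted p = 0.0644). None of the class IIa partner genes other than Sik1, out of 22 measured, was called after training or retrieval.

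Between times of day more of the partners passed. Between CC12 and CC4, 10 of 85 were called (11.8% beside 5.01% of all probe sets), 9 of them higher at 12 h. The Sin3 complex had 3 of 11 measured members higher, Sap30 (0.18), the scaffold Sin3b (0.13) and the PHD finger protein Ing1 (0.12), and its median difference was 0.05, beside -0.004 over all probe sets. The CoREST scaffold Rcor1 rose by 0.13. The nuclear receptor Nr1d2, a clock repressor that recruits NCoR and Hdac3, rose by 0.14, and the NAD-dependent deacetylase Sirt1 by 0.10. Of the acetyltransferases, which oppose the deacetylases, Ncoa3 (0.14) and Ep300 (0.11) rose and Kat6b was lower (-0.18, adjusted p = 0.00391), and among proteins that bind acetyl-lysine or assemble acetyltransferase complexes Brd1 rose by 0.14. None of 11 NuRD members and none of 22 class IIa partners was called.

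In CC12 against CC30, 8 of 85 partners were called (9.41% beside 3.5%), 7 of them higher. They were Sap30 (0.24), Nr1d2 (0.23), Brd1 (0.17), Arid4a (0.16), Sirt1 (0.13), Ing1 (0.12), Ncoa3 (0.11) and, lower, Kat6b (-0.11). Trained mice had 7 of 85 called between FC12 and FC24 (8.24% beside 3.19%) and 4 of 85 between FC12 and FC4 (4.71% beside 4.22%), all higher at 12 h. Arid4a, an Sin3-associated DNA-binding protein, rose by 0.20 ± 0.032 over FC24 (adjusted p = 0.00174) and by 0.14 ± 0.037 over FC4 (adjusted p = 0.0483). Ep300, Ncoa3 and Baz2a, a bromodomain protein of a nucleolar remodelling complex, were called in both comparisons, at 0.10 to 0.14, and Nr1d2 (0.20), Brpf1 (0.15) and Rcor1 (0.11) in FC12 against FC24 alone. In the F test over the 8 groups 22 of 85 partners were called (25.9% beside 10.1%).

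The genes whose levels followed Hdac9 most closely over the 72 arrays were Kcna4, a voltage-gated potassium channel subunit (r = 0.77), Adcy8, a calcium-stimulated adenylyl cyclase (r = 0.75), and Ncam2, a neural cell adhesion molecule (r = 0.75). Within groups, with the group means removed, the same 3 correlated with Hdac9 at 0.40, 0.60 and 0.50. Kcna4 was lower in CC12 than in CC4 by a log2 difference of -0.42 and in FC12 than in FC4 by -0.29. The genes most like Hdac4 were Baz1b, a bromodomain subunit of chromatin remodellers (r = 0.75), Uhrf2, a ubiquitin ligase that binds modified cytosine (r = 0.73), and Zc3h11a, a zinc finger protein of mRNA export (r = 0.72), with 0.63, 0.59 and 0.60 within groups. Baz1b had its lowest group mean in FC4 (9.01) and its highest in CC12 (9.18), as Hdac4 had. These genes were chosen as the 3 most alike out of all single-symbol probe sets, so their values are a description.

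Mice within a group also differed from each other, and some members varied together. Over 45 pairs of members in 72 mice, with group means removed, r ran from -0.32 to 0.55. By permutation within groups 5 pairs passed at an adjusted p under 0.1, all with positive r and all also by rank correlation. How many pairs of other genes pass was not counted, so the 5 pairs are not shown to be particular to this family. Hdac1 and Hdac2, close paralogs that share complexes, had r = 0.55 (rho = 0.50, permutation p = 2e-05 and 4e-05, adjusted p = 9e-04 and 0.0018). Without the 2 mice farthest from the median it was 0.51. How far probes of these paralogs read each other's transcript was not tested. The other 4 pairs joined Hdac11, Hdac6, Hdac5 and Hdac9. Hdac11 correlated with Hdac9 at r = 0.41 (rho = 0.37, permutation p = 6.6e-04 and 0.00221, adjusted p = 0.012 and 0.0497, r = 0.40 without 2 mice) and with Hdac6 at r = 0.41 (rho = 0.34, permutation p = 8e-04 and 0.00452, adjusted p = 0.012 and 0.0541, r = 0.32 without 2 mice). Hdac5 correlated with Hdac6 at r = 0.35 (rho = 0.34, permutation p = 0.00278 and 0.00481, adjusted p = 0.028 and 0.0541, r = 0.34 without 2 mice) and with Hdac11 at r = 0.37 (rho = 0.32, permutation p = 0.00311 and 0.00886, adjusted p = 0.028 and 0.0731, r = 0.30 without 2 mice). Hdac9 and Hdac4, which moved in opposite directions between times of day, had r = -0.15 within groups and did not pass.

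**Figure D5:**
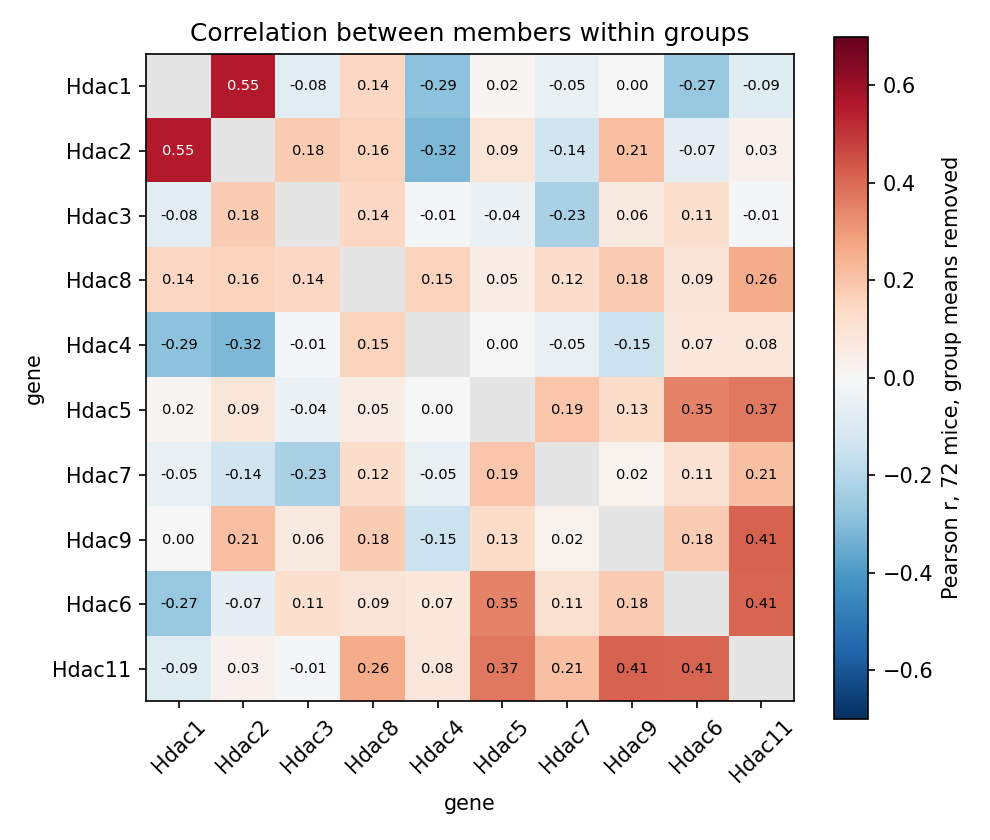
Pearson correlation between the log2 values of each pair of histone deacetylases over 72 mice after removal of the group means; rows and columns are genes and the colour bar gives r. The highest value was 0.55, for Hdac1 with Hdac2, and the lowest -0.32, for Hdac2 with Hdac4, which did not pass.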

How the data were processed

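Hippocampal RNA of 72 mice was hybridised to Affymetrix Mouse Gene 1.1 ST arrays on 1 plate. The authors averaged 2 scans per array, summarised probe sets by RMA in Affymetrix Power Tools and deposited log2 values for 35556 probe sets. Platform annotation named 21218 probe sets with 1 gene symbol and 1881 with several, and the latter were not named. The genome build of the array files is not given in the sources used here.

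Starting from the deposited log2 values, the first principal component of the 72 arrays was removed. The study's methods name this step after standardising against the mean. Here each probe set was centred on its mean and not scaled. The study reports a larger share of the variance for its first component than the 17.4% found here, so the decompositions differ. Each of 13 comparisons was fitted with limma 3.58.1 in R 4.3.3 on its 18 arrays (lmFit, eBayes, two-sided), 4 interaction contrasts on the arrays of their groups, and an F test on all 72. P-values were adjusted by Benjamini-Hochberg over all probe sets and called under 0.1. The 9 alternatives included no and 2 components removed, 1 fit for all groups, the methods' t-test, a filter on dim probe sets and a replicate term. Correlations between members used 100000 permutations within groups (numpy 2.4.6, scipy 1.17.1). Scripts were tested on simulated data. The number of arrays limits the precision.

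All members were reported in each comparison, with partner genes past the threshold (at most 4 of a list), the 3 genes most alike for each called member, and Arc, Fos and Per2. The members and lists were chosen with earlier results of these data known. Some listed genes are not reported here.

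No pair of arrays in a group was identical, with mean absolute differences of 0.126 or more.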

Additional observations from a re-analysis of the deposited data

Results flagged for a closer look

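In 8 of 80 combinations of a member and a group, the highest or lowest of the 9 mice lay further from the nearest other mouse, relative to the group's range, than Dixon's 95% critical value allows, where chance gives about 1 in 20. Low values were those of Hdac3 in RT30 replicate 3 (10.46, nearest 10.55), Hdac4 in FC12 replicate 8 (8.79, nearest 8.86), Hdac5 in FC24 replicate 9 (8.24, nearest 8.41) and Hdac11 in CC30 replicate 8 (8.88, nearest 8.98). High values were those of Hdac4 in FC24 replicate 2 (8.93, nearest 8.85), Hdac6 in FC4 replicate 3 (8.49, nearest 8.36), and Hdac8 (7.84, nearest 7.64) and Hdac9 (8.97, nearest 8.86) in CC4 replicate 8. The array of that CC4 mouse was one of the 6 that stood apart on the first 2 components.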

How the results depend on the processing

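The number of members called was recomputed for 18 tests under up to 9 settings. Of the counts so obtained, 18 changed, 8 of them by over 1.5 times, and the rest stayed the same. In CC12 against CC30 the count rose from 0 to 1, Hdac9, with no component removed (adjusted p = 0.0818), with the first 2 components removed (adjusted p = 0.0962), with the component found from residuals within groups (adjusted p = 0.0755), with all 8 groups in 1 fit (adjusted p = 0.0308), with an intensity trend and robust estimation (adjusted p = 0.0862) and with the 26667 brighter probe sets only (adjusted p = 0.0819). The methods' t-test gave 1 member, Hdac4, in FC4 against FC24 in place of 0. With a replicate block the count in CC12 against CC4 went from 2 to 1, Hdac9 (adjusted p = 0.00833), as Hdac4 had an adjusted p of 0.156, and the count over all probe sets fell from 1782 to 1231. The block changed no other member's call. The paper states that the 9 mice of a group came from 9 independent experiments, but the labels do not say whether replicate numbers mark these. Replicate numbers were not taken as pairs in the main fits. In each of the 13 comparisons at most 3 of 9 same-numbered pairs had deviations from their group means that correlated above 0.1. At most 4 of 9 mice correlated best with their own number. That was in FC4 against CC4, where the median correlation was 0.089 for equal numbers and -0.010 for others. Whether equal numbers share an experiment cannot be told from these values. The count in FC12 against FC4 rose from 2 to 3 under 7 of 9 settings, by Hdac6 (lowest adjusted p = 0.0549), and that of the F test from 2 to 3, also by Hdac6, with no component removed, with 2 removed and with the component found within groups. Of 54 member differences larger than their own SE, the settings, and for 4 differences of Hdac1 its other probe set, gave 490 alternative values, with 475 on the same side of the threshold in the same direction, 1 that lost its call, 14 that gained one and 0 that reversed. The 76 differences smaller than their SE were not included here, and 33 of their alternative values changed sign. The number of all probe sets called, against which the members were read, moved by over 1.5 times under some settings. With the replicate block it went from 91 to 43 in FC30 against CC30, 99 to 47 in RT30 against CC30, 1243 to 705 in CC12 against CC30, 26 to 0 in CC4 against CC30, 1136 to 723 in FC12 against FC24, 1500 to 927 in FC12 against FC4 and 40 to 9 in FC4 against FC24. With the component found within groups it was 327 in FC30 against CC30, 165 (from 0) in RT30 against FC30, 101 (from 54) in RT30 against FC24, 2023 in FC12 against FC24 and 107 in FC4 against FC24, and in the interactions 60 (from 31), 25 (from 16) and 1 (from 0). With all groups in 1 fit it was 149 in RT30 against CC30, 2810 (from 1782) in CC12 against CC4, 108 in CC4 against CC30, 1 in FC24 against CC30 and 2 in FC4 against CC4 (both from 0), and 25 (from 16) in 1 interaction. With 2 components removed it was 2862 in CC12 against CC4, 47 in CC4 against CC30, 62 in FC4 against FC24 and 2 in FC4 against CC4, and without the arrays that stood apart 822 in CC12 against CC30. The cause of these changes was not tested. Precision is limited by the 9 arrays of a group, with SEs of 0.024 to 0.049 for the 70 differences after training or retrieval.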
